A study of Mus musculus with 16 samples.

Results

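The constitutive proteasome was followed through the transcripts of lymphatic endothelial cells (LECs) sorted from mouse lymph nodes (LNs). Genes were taken where the name is Psma, Psmb, Psmc or Psmd with a number, other than the inducible subunits *Psmb8*, *Psmb9* and *Psmb10*, and pseudogenes were left out. Of 24946 gene names in the deposited tables, 37 matched, and 36 of these reached 1 TPM (a level scaled to transcript length and to the library total) in at least 4 of 16 libraries. The name left out was *Psmb11*, a subunit of the thymus, whose highest level was 0.223 TPM. Of the 36 genes, 32 encode a subunit: 8 of the alpha ring, 7 of the beta ring, 6 ATPases (Psmc) and 11 non-ATPase subunits (Psmd). The name rule also took in *Psmd5*, *Psmd9* and *Psmd10*, which encode 3 assembly chaperones, and *Psmc3ip*, which encodes a meiotic recombination factor and no subunit. These 4 are counted among the 36 genes below.

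The proteasome degrades proteins that carry ubiquitin, and it also cuts antigens into the peptides that are shown on MHC class I. Its core particle is a barrel of stacked rings. The outer rings are built of alpha subunits and form the gate, and the inner rings are built of beta subunits, of which *Psmb5*, *Psmb6* and *Psmb7* encode the catalytic ones. The regulatory particle caps the barrel: its ATPases unfold the substrate and open the gate, and its non-ATPase subunits bind and remove ubiquitin. After interferon gamma the catalytic subunits can be replaced by the inducible ones of the immunoproteasome. Lymph node LECs drain antigen into the node and can present it to T cells.

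LECs (CD45-, CD31+, podoplanin+) were sorted from popliteal and brachial LNs of WT mice and of Stab1-/- mice (KO), which lack the scavenger receptor Clever-1 in every cell and not in LECs alone. The labels list 4 samples per group, whereas the design text of the series speaks of 3. For each genotype 4 libraries came from resting LNs and 4 from LNs taken 1 day after ovalbumin (OVA) in Freund's adjuvant was given into the footpads (WT inflamed and KO inflamed). By the study's methods the mice were of both sexes and 6 to 12 weeks old. The supplementary legend on LEC marker levels gives 2 mice per point. The legend of the study's main RNA figure, which also holds cytokine levels, gives 1 mouse per point. The labels name the strain C57BL/6 and complete Freund's adjuvant, whereas the methods name a mixed C57BL/6N and 129SvJ background and incomplete adjuvant. *Stab1* itself had 193 to 639.5 TPM in the 8 WT libraries and 5.09 to 8.90 TPM in the 8 KO libraries.

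One library stood apart and touches every value of its group. WT inflamed replicate 2 had 10903 genes at 1 TPM or more, against 11898 to 12133 in the others, and a summed level of 8 LEC markers of 2191 TPM, against 5116 to 6962 TPM in the other 7 inflamed libraries. Against the other 3 WT inflamed libraries its beta ring genes were higher in 7 of 7 cases (median log2 difference 0.59). In contrast, 9 of 11 non-ATPase genes were lower (median -0.71, against -0.77 over all 12031 genes). Of all 12031 genes, 2174 lay above all 3 of those libraries and 8443 below. In the main fit, counts of called genes that use WT inflamed replicate 2 are given with and without it. The fit over all 16 libraries, an alternative used below, holds that library and was not run without it. The LEC markers summed to 2609 to 3396 TPM at steady state and 6029 to 6962 TPM in KO inflamed LECs, with 7 of 8 detected and *Ccl21a* listed at 0 in all 16 libraries. Read numbers cannot be recovered from TPM, which leaves depth unknown, and errors are the spread over 4 libraries that the labels give as separate samples. Nothing ties these to separate sorts, so part of that spread may be technical.

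In resting LECs the subunits were abundant. The 32 subunit genes summed to 10282 to 10625 TPM in WT and 9617 to 10597 TPM in KO libraries, about 1% of all TPM, and to 11762 to 12346 TPM in WT inflamed and 11471 to 11854 TPM in KO inflamed libraries. The rings of the core particle were at the higher levels. The median of the mean level over 16 libraries was 474 TPM for beta ring genes, 405 TPM for alpha ring genes, 359 TPM for ATPases, 198 TPM for non-ATPase subunits and 52.7 TPM for the assembly chaperones. The core particle held 64.0% to 66.7% of the subunit TPM at steady state and 57.6% to 59.1% in 7 of the 8 inflamed libraries, and 72.7% in WT inflamed replicate 2.

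**Figure D1:**
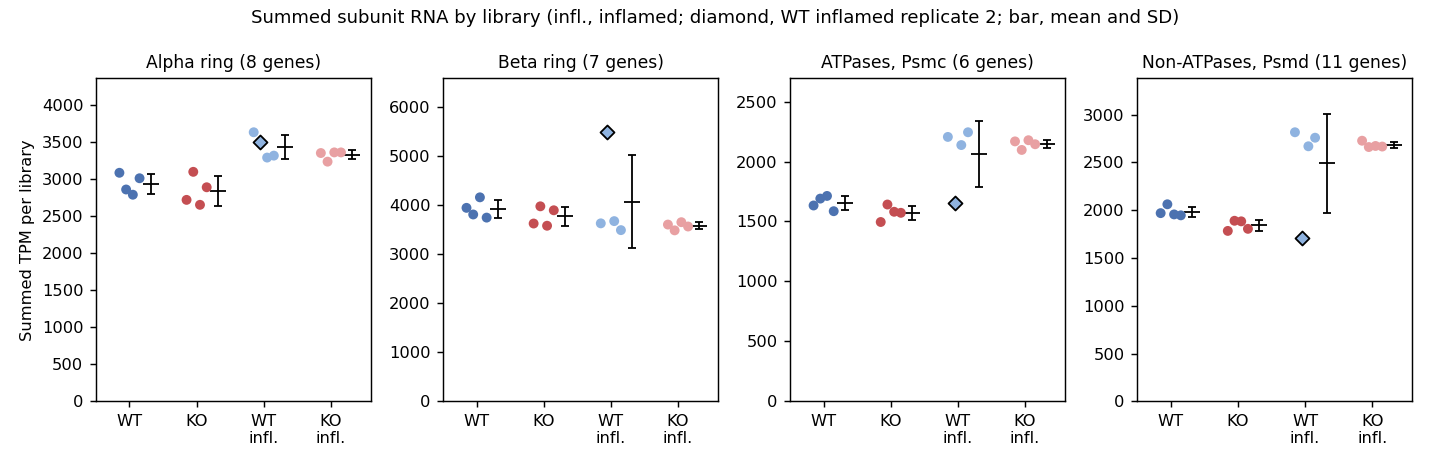
Summed TPM (y axis, from 0) of the alpha ring, beta ring, ATPase and non-ATPase genes in each library, by group (x axis). Each point is 1 library, the diamond is WT inflamed replicate 2, and the bar gives the mean and SD of 4 libraries. ATPase sums were 1496 to 1713 TPM at steady state and 2097 to 2178 TPM in KO inflamed LECs, while beta ring sums were 3483 to 3649 TPM in KO inflamed LECs and 5480 TPM at the diamond.

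Within the classes the highest mean level was 2.19 (chaperones) to 7.17 (ATPases) times the lowest, other than in the alpha ring. There it was 803 times the lowest, that of *Psma8* near 1 TPM. *Psmb2*, a non-catalytic beta subunit, was the most abundant of the 36 genes. It measured 855.5, 820.4, 801 and 798 TPM in WT, 738, 813, 772 and 752 TPM in KO, 918, 1387, 966 and 873 TPM in WT inflamed and 897, 843, 875 and 913 TPM in KO inflamed libraries. Every KO inflamed value lay above every KO value, and the highest value of all was in WT inflamed replicate 2. *Psma7*, an alpha ring subunit, had 683 to 727 TPM in WT, 661 to 763 TPM in KO, 718 to 944 TPM in WT inflamed and 692 to 762 TPM in KO inflamed libraries, so that all groups overlapped. *Psmb1*, another non-catalytic beta subunit, had 674 to 757, 636 to 745, 655 to 969 and 663 to 737 TPM in the same order, again with overlap of all groups. The ranges of *Psma7* and *Psmb1*, neighbours in level with means over 16 libraries of 735 and 712 TPM, overlapped in each group.

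At the other end was *Psma8*, a testis paralog of *Psma7* whose reads may be hard to separate from it. It had 1.68, 1.02, 0.737 and 1.24 TPM in WT and 0, 1.62, 1.28 and 1.29 TPM in KO libraries. In inflamed LECs it had 1.15, 0.174, 0.907 and 0.0809 TPM in WT and 1.01, 0.637, 0.850 and 0.973 TPM in KO libraries. All groups overlapped, and its mean of 0.916 TPM was the lowest of the 36. The next lowest were *Psmc3ip*, with a mean of 8.32 TPM, and *Psmd10*, the chaperone gankyrin, with a mean of 30.6 TPM.

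After OVA most genes of the regulatory particle were higher in KO LECs, while genes of the core particle moved in both directions. Of the 36 genes, 22 were higher and 4 were lower in KO inflamed than in KO LECs (limma on log2(TPM + 1), Benjamini-Hochberg adjusted p of at most 0.05 over 12161 genes). Over all tested genes 43.9% were higher and 16.4% were lower. All 6 ATPases rose, with a median log2 fold change of 0.56, and 8 of 11 non-ATPase subunits rose, with a median of 0.65, beside a median of 0.24 over all genes. Of the alpha ring, 4 of 8 genes rose and 0 fell (median 0.24). In the beta ring only *Psmb2* rose and *Psmb3*, *Psmb6* and *Psmb7* fell (median -0.17). By particle this made 14 of 17 regulatory genes higher and 0 lower (median 0.58), and 5 of 15 core genes higher and 3 lower (median 0.02). The 4 libraries of each group did not overlap for 22 of the 36 genes in the higher and 4 in the lower direction, against 39.6% and 14.4% of all genes. With the fold change of 2 that the study used as well, 2 of the 36 genes were higher and 0 lower, beside 6.41% and 3.06% of all genes.

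The largest increase was in *Psmd14*, the deubiquitinase that removes ubiquitin chains from the substrate at the entrance of the barrel. Its level was 76.2, 102, 88.1 and 86.6 TPM in KO and 192, 192, 184 and 210.0 TPM in KO inflamed libraries. All inflamed values lay far above the steady state ones. The log2 fold change was 1.14 (SE, the standard error of the fit, 0.0866, adjusted p = 4.06e-06 by limma). *Psmd1*, a scaffold of the regulatory particle, had 91.3, 111, 99.2 and 89.9 TPM in KO and 218, 214, 189.5 and 208 TPM in KO inflamed libraries. Again the groups did not overlap, and the log2 fold change was 1.08 (SE 0.0794, adjusted p = 3.31e-06 in the same limma fit). *Psmd12*, a subunit of the lid, had 72.3, 77.0, 70.5 and 73.9 TPM in KO and 149, 146, 141 and 147 TPM in KO inflamed libraries. This was the tightest of the large changes, with a log2 fold change of 0.98 (SE 0.0575, adjusted p = 1.07e-06 by limma). Of the other 8 non-ATPase genes, 5 rose by 0.47 to 0.85 on the log2 scale. *Psmd4*, *Psmd8* and *Psmd13* did not pass, with log2 fold changes of 0.09, -0.12 and 0.13.

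The 6 ATPases, which form the unfolding ring, rose by 0.15 (*Psmc3*) to 0.77 (*Psmc6*) on the log2 scale, and 6 of 6 had inflamed libraries that did not overlap with the steady state ones. Among the chaperones of ATPase ring assembly, *Psmd10* measured 24.1, 27.6, 25.6 and 20.5 TPM in KO and 36.3, 40.2, 33.6 and 39.3 TPM in KO inflamed libraries. The groups did not overlap (log2 fold change 0.60, SE 0.104, adjusted p = 0.000656 by limma). *Psmd5* also rose (0.53), and *Psmd9* was lower by a margin at the threshold itself (log2 fold change -0.16, limma adjusted p = 0.05). *Psmc3ip*, the recombination factor, had 3.52, 5.16, 8.85 and 5.34 TPM in KO and 10.5, 9.58, 9.44 and 15.003 TPM in KO inflamed libraries. It rose without overlap (log2 fold change 0.89, SE 0.226, adjusted p = 0.00633 by limma).

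In the beta ring, *Psmb7*, the subunit with trypsin-like activity, had 427, 528, 451 and 489 TPM in KO and 392, 407, 375 and 358 TPM in KO inflamed libraries. The groups did not overlap, and the log2 fold change was -0.30 (SE 0.0738, adjusted p = 0.00494 by limma). *Psmb3*, a structural beta subunit, had 482, 516, 479 and 532 TPM in KO and 424, 400.4, 416 and 403 TPM in KO inflamed libraries. Again there was no overlap (log2 fold change -0.29, SE 0.0543, adjusted p = 0.00109 by limma). *Psmb6*, the subunit with caspase-like activity, had 646, 653, 613 and 690.2 TPM in KO and 570.0, 543, 586 and 585 TPM in KO inflamed libraries, all lower (log2 fold change -0.19, limma adjusted p = 0.0124). *Psmb2* rose by 0.20 on the log2 scale (SE 0.0519, adjusted p = 0.00727 by limma). In a fit over all 16 libraries the calls of *Psmb7*, *Psmb3*, *Psmb6* and *Psmb2* were lost (limma adjusted p = 0.0522, 0.188, 0.303 and 0.207), and 0 of the 36 genes were lower. *Psma7*, *Psmb1* and *Psmb5* had log2 fold changes of 0.00, -0.01 and 0.02 and did not pass.

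Direction in the beta ring depended on the scale. Rescaling each library by the median ratio, which moved the median of all genes from 0.24 to 0.01, gave 17 genes higher and 9 lower of the 36, beside 26.7% and 28.1% of all genes. Under it the ATPases kept 4 of 6 and the non-ATPases 8 of 11 genes higher with 1 lower, and the beta ring had 0 higher and 6 lower. The log2 fold changes of *Psma7*, *Psmb2* and *Psmb5* were then -0.26, -0.06 and -0.24. Transcript length also moved with the response. Genes with a principal transcript under 1000 bases had a median log2 fold change of -0.33 and those of 2500 bases or more one of 0.39, and beta ring transcripts were short (median 899 bases) beside those of the ATPases (median 1613.5 bases) and the non-ATPases (median 1904 bases).

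Across the 36 genes, log2 fold change and log2 length had a Pearson r of 0.458, beside 0.336 across all 11523 genes with a length, as a description across genes of the same libraries. Within the lengths of 1500 to 2500 bases the median was 0.58 for 13 of the 36 genes and 0.16 for all genes. In the shortest class the medians were 0.00 for 5 of the 36 genes and -0.33 for all genes. With the length trend of each library removed, an alternative chosen after the data were seen, 25 of the 36 genes were higher and 2 lower, beside 27.2% and 25.4% of 11523 genes. The falls of *Psmb3* and *Psmb6* then turned to log2 fold changes of 0.04 (adjusted p = 0.47) and 0.12 (adjusted p = 0.0391, limma), while *Psmb7* stayed lower at -0.18 (limma adjusted p = 0.0432). The ATPases then had 5 of 6 and the non-ATPases 9 of 11 genes higher.

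**Figure D2:**
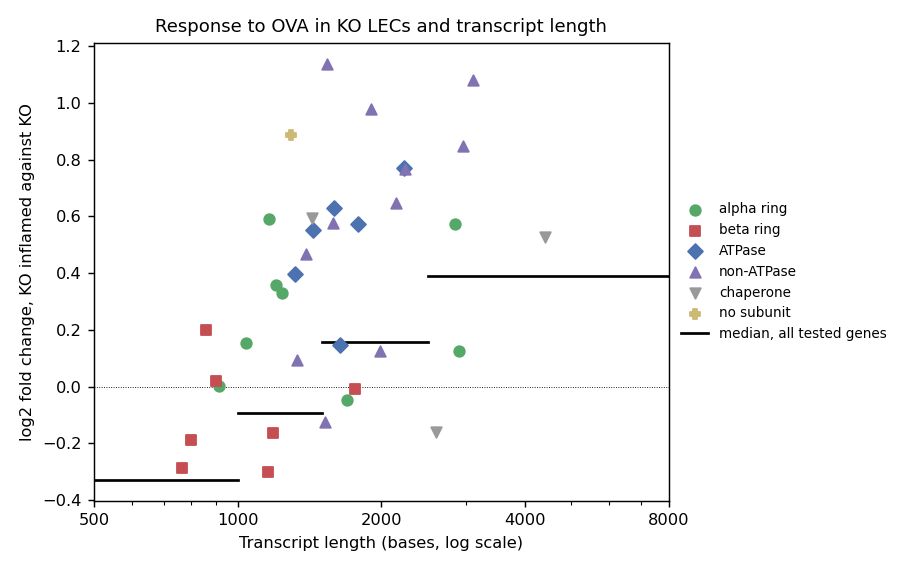
Log2 fold change on the log2(TPM + 1) scale in KO inflamed against KO LECs (y axis) against the length of the principal transcript in bases (x axis, log scale) for the 36 genes, by class. Black lines are medians of all tested genes with a length in 4 length classes, from -0.33 for the shortest to 0.39 for the longest. All ATPase and non-ATPase genes but *Psmc3*, *Psmd8* and *Psmd13* lie above the line at their length.

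Several other measures moved with OVA in the same libraries, and others overlapped. The summed level of 14 genes of dividing cells was 303 to 347 TPM in KO and 685 to 817 TPM in KO inflamed libraries, with all 14 detected. That of 8 macrophage genes was 438 to 571 TPM in KO and 188 to 262 TPM in KO inflamed libraries, with 8 of 8 detected in each. The genes of this list did not move alike. *Lyz2* fell (227 to 379 and 70.8 to 110.2 TPM), whereas *Mrc1* rose without overlap (36.2 to 46.2 and 63.2 to 87.3 TPM) and *Adgre1* overlapped. Of blood endothelium and high endothelial venules 10 genes summed to 6459 to 7606 TPM in KO and 3421 to 5393 TPM in KO inflamed libraries, with 9 of 10 detected in each. Of these, *Glycam1* (3873 to 5191 and 1533 to 3183 TPM), *Madcam1*, *Ackr1* and *Fut7* fell without overlap. The groups overlapped for *Plvap* (1324 to 1597 and 1373 to 1588 TPM), *Emcn*, *Cd34*, *Flt1*, *Chst4* and *Sox17*. The B cell genes summed to 112 to 125 TPM and 53.0 to 71.2 TPM, with 4 and then 3 of the 5 genes in the tables detected. The 8 neutrophil genes summed to 27.7 to 68.3 TPM and 0.702 to 15.9 TPM, with 3 and then 2 detected, and *Elane* and *Ly6g* in KO and *Ngp* and *Camp* in KO inflamed LECs were listed at 0 in all libraries. The summed LEC markers were higher after OVA as given above. Of these, *Lyve1* (1146 to 1361 and 3392 to 4651 TPM), *Pdpn*, *Flt4* and *Pecam1* rose without overlap, while *Prox1*, *Stab2* and *Reln* overlapped. The sums overlapped between KO and KO inflamed libraries for T and NK cell genes (45.2 to 63.1 and 44.6 to 62.2 TPM). They also overlapped for dendritic cell genes (95.3 to 149.4 and 114.6 to 137.8 TPM) and mesenchymal genes (288 to 446 and 428.5 to 785 TPM). Within these lists *Lck* rose without overlap (26.6 to 34.4 and 39.7 to 57.1 TPM). *Cd3d*, *Cd3e* (3.53 to 5.27 and 0.429 to 1.55 TPM), *Cd3g*, *Cd4* and *Nkg7* fell without overlap, and *Cd8a* overlapped. *Ccr7* fell without overlap (14.5 to 25.6 and 2.32 to 3.02 TPM). *Dcn*, *Col1a2* and *Col3a1* rose without overlap, and the other dendritic cell and mesenchymal genes overlapped. Cytosolic ribosomal protein genes had 75 of 89 genes lower (median -0.72), and complex I genes had 29 of 37 lower (median -0.42), beside 16.4% of all genes. Over 20 settings the ribosomal median was -0.98 to -0.39 with 60 to 78 genes lower. That of complex I was -0.68 to -0.11 with 9 to 31 genes lower. The part of all these measures in the values of the proteasome genes was not tested. A change in cell make-up cannot be told apart from a change in RNA per cell in sorted bulk samples.

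For 29 of the 36 genes RefSeq (GRCm38.p6) gave a promoter, of which the 250 bases before the start were read. Shown are those of the 3 genes with the largest increase, then *Psmb3*, which fell, and *Psmb5*, which differed between the genotypes. Capitals mark TGACNNNGC, the core of the antioxidant response element bound by NFE2L1 and NFE2L2, or CCAAT, the box bound by NF-Y, on either strand. They lie at chr2:61711444-61711693 (plus strand), chr1:86064369-86064618 (plus strand), chr11:107479278-107479527 (plus strand), chr11:97703184-97703433 (plus strand), chr14:54617996-54618245 (minus strand) in the order printed, 5′ to 3′ along the gene.
Psmd14: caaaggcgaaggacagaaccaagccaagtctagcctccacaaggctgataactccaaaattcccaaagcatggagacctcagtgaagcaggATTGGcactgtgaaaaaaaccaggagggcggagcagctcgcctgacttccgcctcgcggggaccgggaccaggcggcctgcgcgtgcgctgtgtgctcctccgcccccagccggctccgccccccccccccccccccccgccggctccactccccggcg
Psmd1: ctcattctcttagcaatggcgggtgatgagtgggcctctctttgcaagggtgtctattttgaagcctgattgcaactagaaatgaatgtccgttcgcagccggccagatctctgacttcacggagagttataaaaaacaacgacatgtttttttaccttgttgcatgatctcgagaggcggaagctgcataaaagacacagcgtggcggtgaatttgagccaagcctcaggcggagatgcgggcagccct
Psmd12: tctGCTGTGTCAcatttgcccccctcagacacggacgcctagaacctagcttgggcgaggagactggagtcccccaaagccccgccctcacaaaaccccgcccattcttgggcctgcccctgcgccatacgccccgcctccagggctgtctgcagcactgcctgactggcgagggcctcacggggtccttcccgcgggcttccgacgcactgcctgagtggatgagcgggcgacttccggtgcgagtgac
Psmb3: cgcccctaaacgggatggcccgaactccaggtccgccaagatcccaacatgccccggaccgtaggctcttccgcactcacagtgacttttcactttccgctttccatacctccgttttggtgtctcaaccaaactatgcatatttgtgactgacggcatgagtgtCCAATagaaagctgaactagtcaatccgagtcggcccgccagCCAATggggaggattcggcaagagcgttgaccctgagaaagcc
Psmb5: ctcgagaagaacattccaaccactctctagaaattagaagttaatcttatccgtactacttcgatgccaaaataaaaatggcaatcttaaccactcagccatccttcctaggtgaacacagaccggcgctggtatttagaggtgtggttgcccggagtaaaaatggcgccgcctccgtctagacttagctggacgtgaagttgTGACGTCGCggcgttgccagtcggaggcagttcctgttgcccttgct

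*Psmd12* and *Psmb5* held the first motif 1 time each, *Psmd14* held 1 CCAAT box and *Psmb3* held 2, and neither was found in the window of *Psmd1*. TGACNNNGC was present in 5 of 29 promoters (17.2%: *Psmb5*, *Psmb6*, *Psmc6*, *Psmd9* and *Psmd12*), beside 1382 of 9839 genes at the level filter and 11.5% of all 27025 genes with a promoter. CCAAT was present in 12 of 29 (41.4%), beside 40.7% and 37.5%. By particle, CCAAT was found for 6 of 11 core genes and 4 of 14 regulatory genes, and TGACNNNGC for 2 of 11 and 2 of 14. These are counts of letters in a window, and the shares of the proteasome genes were near those of all genes.

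In WT LECs the calls after OVA depended on the library that stood apart. With all 4 libraries, 1 of the 36 genes was higher and 0 were lower in WT inflamed than in WT LECs, beside 2.56% and 2.84% of the 12031 genes tested, and 8 of 36 had an unadjusted p under 0.05, beside 17.2% of all genes. The groups did not overlap for 5 of the 36 genes with WT inflamed above and 0 with it below, beside 5.24% and 8.81%. The gene called was *Psmc3ip*, with 6.12, 5.79, 4.39 and 2.82 TPM in WT and 15.2, 12.35, 8.55 and 10.6 TPM in WT inflamed libraries. The groups did not overlap (log2 fold change 1.15, SE 0.273, adjusted p = 0.0435 by limma). This call was lost with no filter on low values (adjusted p = 0.0705), with rescaling by the median ratio (0.0577, where *Psmd14* was the 1 gene called, at 0.0323), with quantile normalization (0.0605), with a term for the replicate number (0.0898) and when any 1 of the other 7 libraries was left out (0.0689 to 0.135). It held without replicate 2 (limma adjusted p = 0.00609). Without WT inflamed replicate 2, 19 genes were higher and 3 lower, beside 28.4% and 13.7% of 11936 genes. By class these were 5 of 6 ATPases (median 0.48), 8 of 11 non-ATPases (0.57) and 3 of 8 alpha ring genes (0.16) higher, and *Psmb3*, *Psmb6* and *Psmb7* of the beta ring lower (-0.15), beside a median of 0.17 over all genes.

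The library values show how far that 1 library decided the outcome. *Psmd14* had 120.3, 101, 87.1 and 108 TPM in WT and 218, 88.5, 180.0 and 193 TPM in WT inflamed libraries. Replicate 2 alone fell within the steady state range, and the log2 fold change was 0.63 with it (limma adjusted p = 0.272) and 0.92 without it (adjusted p = 0.000223). *Psmd1* had 117, 109, 95.0 and 122 TPM in WT and 234, 57.9, 211 and 209 TPM in WT inflamed libraries. Here replicate 2 lay below every WT library, and the log2 fold change was 0.50 with it (limma adjusted p = 0.667) and 0.97 without it (adjusted p = 6.18e-05). *Psmd12* had 86.7, 87.2, 81.1 and 88.5 TPM in WT and 162, 63.3, 141 and 146 TPM in WT inflamed libraries, with the same pattern (0.49, adjusted p = 0.455, and 0.79, adjusted p = 7.57e-05, limma).

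Beta ring genes had the opposite pattern. *Psmb3* had 504, 475, 574 and 494 TPM in WT and 422, 718, 394 and 359 TPM in WT inflamed libraries, so that replicate 2 was the highest of all 8 and the other 3 lay below every WT library. *Psmb6* had 665, 634, 736 and 646 TPM in WT and 579, 945, 558 and 579.6 TPM in WT inflamed libraries, and *Psmb7* had 461, 452, 461 and 447 TPM and 359.6, 465, 371 and 323 TPM. Without replicate 2 the log2 fold changes of the 3 genes were -0.38, -0.23 and -0.38 (limma adjusted p = 0.00668, 0.033 and 0.0026). With the length trend removed as well, 20 of the 36 genes were higher and 2 lower, beside 18.2% and 18.1% of all genes. Then the values of *Psmb3* and *Psmb6* were -0.06 and 0.08 and did not pass, and that of *Psmb7* was -0.25 (limma adjusted p = 0.0216). Dividing cell genes summed to 310 to 339 TPM in WT and 380 to 872 TPM in WT inflamed libraries and macrophage genes to 442 to 1156 and 161 to 191 TPM, with 14 of 14 and, in WT inflamed LECs, 7 of 8 genes detected. Among the macrophage genes *Mrc1* had 33.5 to 52.6 TPM in WT and 67.7, 15.4, 67.1 and 69.8 TPM in WT inflamed libraries, against the sum except in replicate 2. The part of the dividing cell and macrophage genes was not tested here either.

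**Figure D3:**
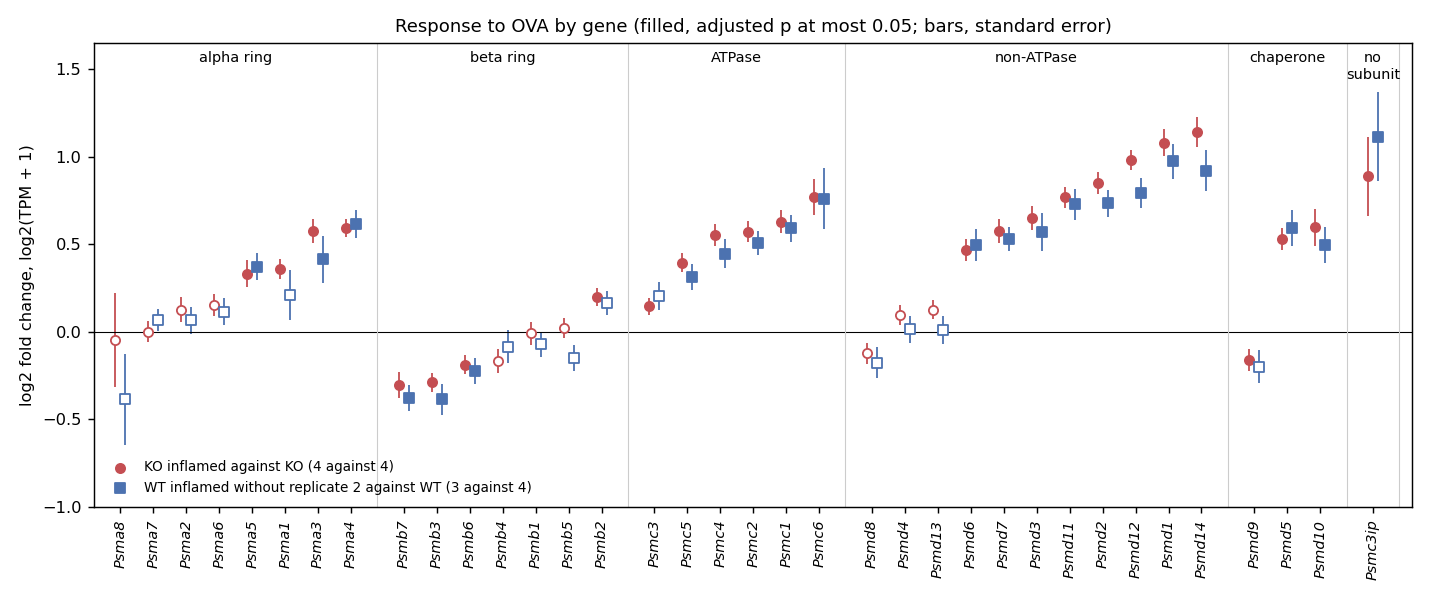
Log2 fold change after OVA on the log2(TPM + 1) scale (y axis) for each of the 36 genes (x axis, by class), in KO LECs (circles, 4 against 4 libraries) and in WT LECs without replicate 2 (squares, 3 against 4). Bars are standard errors and filled points have a limma adjusted p of at most 0.05. ATPase and most non-ATPase genes lie above 0 in both genotypes, and *Psmb3*, *Psmb6* and *Psmb7* lie below 0 in both on this scale, of which *Psmb3* and *Psmb6* lay above 0 in KO LECs (0.04 and 0.12) with the length trend removed.

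At steady state the genotypes differed in 1 of the 36 genes. No gene (0) was higher and *Psmb5*, which encodes the subunit with chymotrypsin-like activity, was lower in KO than in WT LECs, beside 1.0% higher and 0.804% lower of 12058 genes, and 3 of 36 had an unadjusted p under 0.05, beside 11.7%. *Psmb5* lies on chr14:54614120-54617995 (GRCm38) and measured 354, 364, 404 and 361 TPM in WT and 272, 305, 283 and 284 TPM in KO libraries. Every KO library lay below every WT library, and the means were 286 ± 13.8 TPM (SD, n = 4) for KO against 371 ± 22.8 TPM (SD, n = 4) for WT LECs. The log2 fold change was -0.37 (SE 0.0674, adjusted p = 0.0151 by limma). The call was lost with rescaling by the median ratio (adjusted p = 0.123), with eBayes without trend (0.0977), with a term for the replicate number (0.0675), in a fit over all 16 libraries (0.5), and without WT replicate 2 (0.0548), KO replicate 1 (0.0698) or KO replicate 4 (0.0527), while the log2 fold change stayed between -0.40 and -0.33 in all 20 settings run.

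*Psmb6* and *Psmb7*, the other catalytic subunits, had log2 fold changes of -0.04 and 0.05 (limma adjusted p = 0.882 and 0.85). Besides *Psmb5*, the KO libraries lay wholly below the WT libraries for *Psmd12* (-0.22, limma adjusted p = 0.212) and *Psmd7* (-0.14, adjusted p = 0.477), or 3 of 36 genes, beside 3.81% of all genes, and above for 0, beside 2.73%. The median log2 fold change of the 36 genes was -0.08 and that of all genes -0.04. *Stab1*, the deleted gene, lies on the same chromosome at a distance of 23.4 Mb from *Psmb5*. Of the other proteasome genes on chromosome 14, *Psmc6* (14.2 Mb from *Stab1*) and *Psmd6* (17 Mb) had log2 fold changes of -0.11 and -0.08 and did not pass. Strain sequence carried with the deleted locus and the deletion itself cannot be told apart in this design.

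Markers of other cells differed between the genotypes in the same libraries. The genes of blood endothelium and high endothelial venules summed to 3751 to 4369 TPM in WT and 6459 to 7606 TPM in KO libraries, with 9 of 10 detected in each. *Glycam1* (1868 to 2436 and 3873 to 5191 TPM), *Madcam1*, *Chst4*, *Fut7*, *Ackr1* and *Flt1* (1.42 to 1.70 and 1.98 to 2.83 TPM) did not overlap between the genotypes. *Plvap* (1399 to 1637 and 1324 to 1597 TPM), *Emcn*, *Cd34* and *Sox17* did. The B cell genes summed to 66.3 to 91.1 TPM and 112 to 125 TPM, with 4 of the 5 genes in the tables detected in each. Their part in the difference of *Psmb5* was not tested. In inflamed LECs *Psmb5* had 333, 537, 335 and 335 TPM in WT and 293, 282, 304 and 282 TPM in KO libraries. Again all KO libraries were lower than all WT libraries, but the difference did not pass (log2 fold change -0.37, SE 0.175, adjusted p = 0.717 by limma). Without WT inflamed replicate 2 it was -0.20 (SE 0.0574, adjusted p = 0.191).

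**Figure D4:**
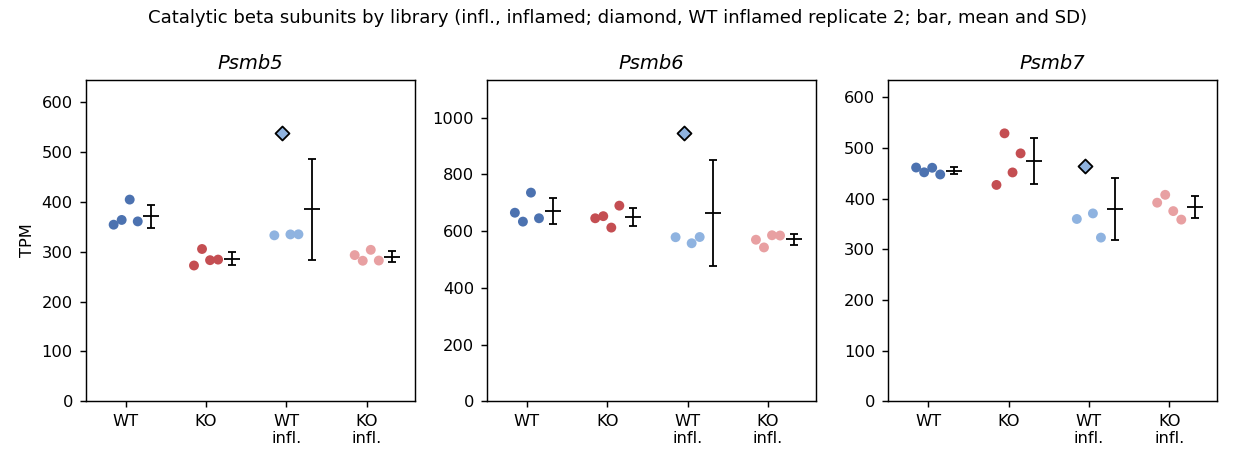
TPM (y axis, from 0) of the catalytic beta subunits *Psmb5*, *Psmb6* and *Psmb7* in each library, by group (x axis). Points are libraries, the diamond is WT inflamed replicate 2, and the bar gives the mean and SD of 4 libraries. *Psmb5* was at 272 to 305 TPM in KO and KO inflamed libraries and at 333 to 537 TPM in WT and WT inflamed libraries.

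Between KO inflamed and WT inflamed LECs, 0 of the 35 genes tested were higher and 0 lower with limma, 0 had an unadjusted p under 0.05, beside 4.26% of 12030 genes, of which 0.316% were called. *Psma8* did not reach the filter there. The groups did not overlap for 1 gene, *Psmb5*, beside 1.22% of all genes with KO wholly below and 3.97% with KO wholly above. Tested over 16 libraries, the difference between the OVA responses of the genotypes was called by limma for 0 of the 36 genes and 0.0% of 12684 genes. At an unadjusted p under 0.05 there were 0 of the 36 genes, beside 4.27% of all. In both comparisons 0 of these genes were called without WT inflamed replicate 2, when 1.05% and 0.0553% of all genes were called. The largest interaction estimates were those of *Psmd1* (log2 0.58, SE 0.443), *Psmd2* (0.54, SE 0.393) and *Psmd14* (0.51, SE 0.301). Without WT inflamed replicate 2 they were 0.11 (SE 0.128), 0.12 (SE 0.0895) and 0.22 (SE 0.15). *Psmd2*, a scaffold subunit, was named after its value was seen.

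The genes that work with the proteasome were read from 8 lists with 47 names, of which 46 were tested in KO inflamed against KO LECs. Of these, 25 were higher and 10 lower (median 0.23), beside 43.9% and 16.4% of all genes. With rescaling by the median ratio the counts were 15 and 14, beside 26.7% and 28.1%, and with the length trend removed 20 and 10, beside 27.2% and 25.4%. The inducible subunits *Psmb8*, *Psmb9* and *Psmb10* all fell, by 0.27, 0.38 and 0.55 on the log2 scale, and 3 of 3 also fell with either of these settings (by 0.32 to 0.81). *Psmb8*, which takes the place of *Psmb5*, held 74.0% to 74.9% of the TPM of the pair in WT, 78.4% to 80.2% in KO, 74.1% to 77.4% in WT inflamed and 74.0% to 77.4% in KO inflamed libraries. The steady state genotypes did not overlap in this share, and the inflamed ones did. The other pairs were near equal shares, with *Psmb9* at 46.0% to 52.4% of its pair with *Psmb6* and *Psmb10* at 38.5% to 56.9% of its pair with *Psmb7*.

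All 4 genes of the segregase, which pulls ubiquitylated proteins out of complexes and membranes, rose. *Vcp*, its ATPase, had a log2 fold change of 0.84 (SE 0.0776, adjusted p = 1.27e-05 by limma). Of the 4 segregase genes, 3 were higher with rescaling by the median ratio (median 0.38) and 4 with the length trend removed (median 0.35). Of the other genes of the regulatory particle 4 of 6 rose, among them the deubiquitinases *Uchl5* (1.10) and *Usp14* (0.80), and *Sem1*, a small subunit of the lid, fell (-0.30). With either of these settings 3 of the 6 were higher and 1 lower. Of the list on transcription of subunits 8 of 11 rose and 1 fell (median 0.44), with 5 higher and 2 lower (median 0.18) after rescaling by the median ratio and 6 higher and 2 lower (median 0.24) with the length trend removed. They included *Ddi2*, the protease that activates NFE2L1 (1.10), *Nfe2l1* (0.36), *Nfe2l2* (0.63) and *Nfyb* (0.95), whereas *Foxo4* fell (-0.74). *Nfe2l1* did not pass with rescaling by the median ratio (0.09) or with the length trend removed (-0.05), whereas the other genes named in these lists kept their call and direction with both.

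Of the shuttle factors, which carry ubiquitylated proteins to the proteasome, 3 of 5 rose (*Ubqln1* by 0.73) and *Ubqln2* fell by 0.52, but 1 of 5 was higher and 1 lower with rescaling by the median ratio (median -0.04) or with the length trend removed (median -0.01). Of the 7 assembly factors tested, 2 rose, *Ecpas* by 0.74 and *Pomp*, the maturation factor of the core particle, by 0.23, and *Psmg3*, a chaperone of the alpha ring, fell by 0.34. Of the activators and the inhibitor 2 of 5 rose, *Psme3* by 0.46 and *Psme4* by 0.44, while the interferon-induced *Psme1* and *Psme2* had log2 fold changes of -0.02 and 0.00. The calls of *Pomp* (-0.03) and *Psme4* (0.26) were lost with rescaling by the median ratio, and those of *Psmg3* (-0.04), *Psme3* (0.17) and *Psme4* (0.04) with the length trend removed. In WT inflamed against WT LECs limma called 0 of the 46 genes with all libraries, and 18 higher and 8 lower without WT inflamed replicate 2, beside 28.4% and 13.7% of all genes, with 1 of the 3 inducible subunits among those lower. Between the genotypes 0 of the 46 genes were called, at steady state or in inflamed LECs, and 0 of the 45 tested in inflamed LECs without that library.

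**Figure D5:**
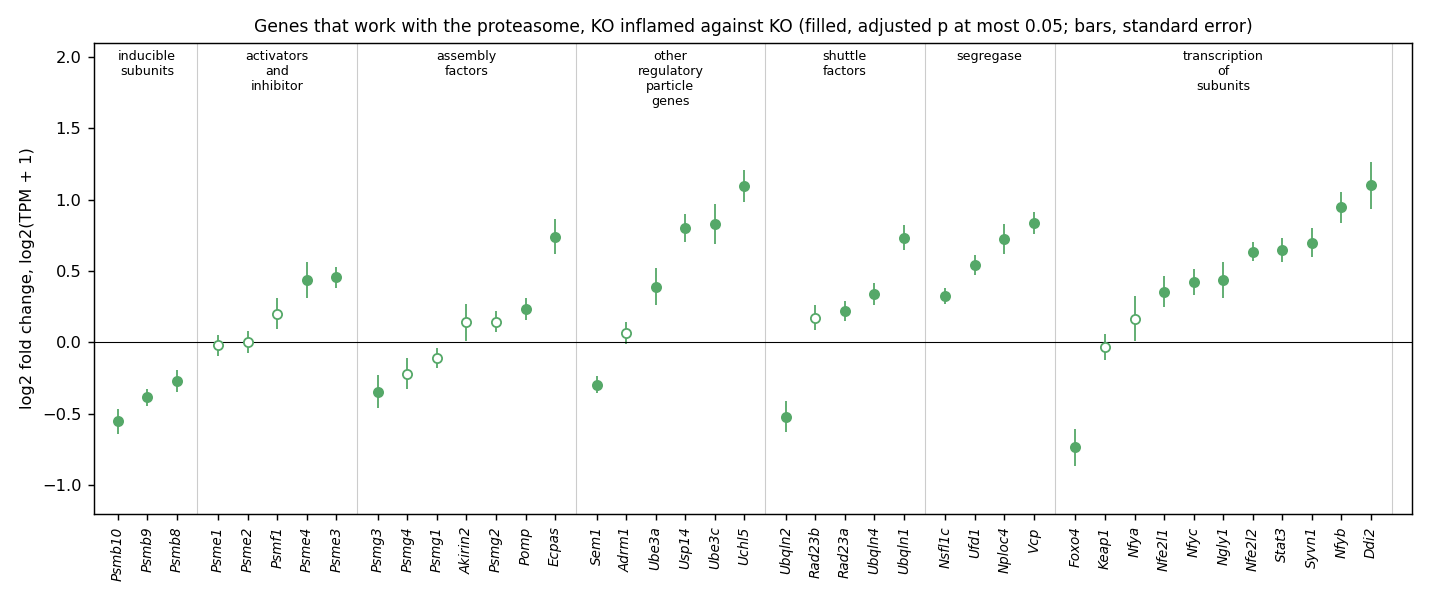
Log2 fold change on the log2(TPM + 1) scale in KO inflamed against KO LECs (y axis) for 41 genes that work with the proteasome (x axis), in 7 of the 8 lists. Bars are standard errors and filled points have a limma adjusted p of at most 0.05. The inducible subunits lie below 0 (-0.27 to -0.55) and the segregase genes above 0 (0.33 to 0.84).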

How the data were processed

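RNA of sorted LECs was sequenced in 16 libraries, 4 per group. The authors deposited TPM of each gene, made with STAR and salmon by the methods of the study and with STAR 2.5.2b, Subread and limma by the submitters' processing notes, on mm10. The 3 tables used repeat 8 library columns with 0 differing values and were read as 1 set, after 26 gene names turned into dates were dropped from each. Another 7 deposited tables hold the authors' own fold changes, q values and group means of changed genes and were not used. TPM keep no depth, and precision rests on the spread of 4 libraries.

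TPM were taken as log2(TPM + 1), so that fold changes of low genes are understated. A gene entered a test if 4 or more fitted libraries had it at 1 TPM, and lmFit and eBayes with trend of limma 3.58.1 (R 4.3.3) were applied, with Benjamini-Hochberg adjustment over all genes tested. Each pairwise comparison used the 8 libraries of its groups, and the interaction used 16. Comparisons that share a group are not independent. The test was tested on simulated data. The 36 genes and all lists were chosen with earlier results of these data known. Library values are given for the 3 catalytic subunits, the 3 genes with the highest and the 3 with the lowest mean TPM, and in each comparison the 3 called genes with the largest and the 3 with the smallest log2 fold change and any past the fold threshold of 2. *Psmd2*, *Psmd7*, *Psmc6* and *Psmd6*, and single genes of classes or lists, were named after their values were seen. The genes of 1 of the 8 lists enter the counts over all lists and are not reported singly here: 2 of its 5 were higher and 3 lower in KO inflamed against KO LECs (median -0.17), and 1 higher and 3 lower with the median ratio or with the length trend removed. Positions and promoters came from RefSeq on GRCm38, and transcript lengths from the principal transcripts of GENCODE. Python 3.11.15 and matplotlib 3.10.9 were used.

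Tried as alternatives were other pseudocounts (0.1 or 5 TPM) and filters (none, or 5 TPM). The scale was changed by quantile normalization or by the median ratio. Array weights, eBayes with no trend, the replicate number as a term, all 16 libraries in 1 fit, the fold threshold and the loss of each library in turn were run too. Removing the length trend, also with WT inflamed replicate 2 left out, was chosen after seeing the data.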

Additional observations from a re-analysis of the deposited data

Results flagged for a closer look

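A group of 4 libraries was searched for a highest or lowest library far from the other 3, for the 18 values of each group that the text names. In 9 of 72 groups 1 library lay apart. Chance alone marks about 1 in 20 independent groups, but these are genes and sums of the same 16 libraries and are not independent. Of the 9, 7 were WT inflamed replicate 2. It was the highest library of its group for *Psmb1* (968.7 TPM), *Psmb5* (537.1 TPM), *Psmb6* (945.1 TPM) and the summed beta ring genes (5480 TPM). It was the lowest for *Psmd1* (57.9 TPM), *Psmd10* (23.41 TPM) and the summed non-ATPase genes (1712 TPM). In KO inflamed LECs the summed alpha ring genes were lowest in replicate 2 (3231 TPM, against 3347 to 3356 TPM in the others) and the summed non-ATPase genes highest in replicate 1 (2726 TPM, against 2660 to 2672 TPM in the others).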

How the results depend on the processing

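The counts of called genes of the 36 changed as follows. For KO against WT the 1 lower gene became 0 with rescaling by the median ratio, with eBayes without trend, in the fit over all 16 libraries, with a fold threshold of 2 and in the fit with the replicate block. For WT inflamed against WT the 1 higher gene became 0 with no filter on low values, with quantile normalization and with the replicate block, 7 in the fit over all 16 libraries, 8 with the length trend removed, 20 with array weights and 20 with the length trend removed and without WT inflamed replicate 2. The lower count rose from 0 to 4 with array weights and 2 with the last of these settings, which called 18.2% of all genes higher and 18.1% lower. In this comparison the calls over all genes moved too. They ran from 120 to 3857 genes higher and 107 to 2057 lower over 21 settings, with the fold threshold left aside. For KO inflamed against KO the 22 higher genes became 2 with the fold threshold. The 4 lower genes became 9 with rescaling by the median ratio, 2 with eBayes without trend and with the length trend removed, and 0 in the fit over all 16 libraries and with the fold threshold. Over all genes, 1663 to 5496 were higher and 1132 to 3421 lower in the 20 settings of this comparison without the fold threshold. Rescaling by the median ratio moved the median log2 fold change of the 36 genes to 0.12 in KO inflamed against KO, to -0.20 in KO inflamed against WT inflamed and to -0.18 in the interaction. The cause was not tested.

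Leaving out 1 library at a time gave 0 to 1 lower genes in KO against WT (0 higher throughout), 0 to 19 higher and 0 to 3 lower in WT inflamed against WT, and 21 to 24 higher and 3 to 4 lower in KO inflamed against KO. It gave 0 higher and 0 lower in KO inflamed against WT inflamed and in the interaction. The 19 higher and 3 lower genes were those without WT inflamed replicate 2, when 28.4% and 13.7% of all genes were called. The medians ranged from -0.10 to -0.05, 0.22 to 0.34, 0.36 to 0.43, -0.03 to 0.09 and 0.06 to 0.19 in the order of the comparisons above. Of the values of named genes that passed the threshold as reported or under the alternative, 5 changed sign, all in KO inflamed against KO: *Psma7* (-0.26), *Psmb2* (-0.0636) and *Psmb5* (-0.24) with rescaling by the median ratio, and *Psmb3* (0.0433) and *Psmb6* (0.12) with the length trend removed. Same-numbered libraries did not deviate together (correlations of -0.13 to 0.10, beside -0.27 to 0.27 for differently numbered ones). These values show no pairing by number. With 4 libraries per group they cannot settle whether same-numbered libraries were processed together. The depth of the libraries is unknown and sets no limit that can be given, and *Psma8*, near 1 TPM, was at the filter. Removal of the length trend was chosen after seeing the data.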
